A study of Mus musculus with 6 samples.

Results

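The collagen genes were examined in mouse vestibular epithelium after prolonged exposure to an ototoxic nitrile. Members were all protein-coding genes whose symbol has the form Col, a number, a and a number, one for each collagen chain. This rule found 44 genes among the 52636 genes of the count table, of which 22027 were protein-coding. The study exposed male 129S1/SvImJ mice, 2 to 4 months old by the study's methods, to 3,3'-iminodipropionitrile (IDPN) at 30 mM in the drinking water for 8 weeks, and Control mice of the same strain, sex and age range drank water without it. Each of the 3 Control and 3 IDPN libraries held the RNA of 1 animal, with its 2 utricles and 6 cristae (the organs that sense linear and angular head movement) combined. IDPN damages the sensory hair cells of these organs, and the animals were sampled on the last day of exposure. The comparison asks how the matrix genes of this tissue differ at that stage. The 3 Control animals carry title codes with a common stem not used for IDPN animals, so an effect of whatever the stem marks and an effect of the exposure cannot be told apart.

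Collagens are secreted or membrane-bound proteins in which 3 chains wind into a triple helix. Fibrillar collagens pack into the banded fibrils of connective tissue and cartilage, fibril-associated collagens sit on the surface of those fibrils, and type IV collagen forms the sheet-like network of basement membranes. In the inner ear, collagens II, IX and XI are best known from the tectorial membrane and the connective tissue around the labyrinth, and collagen IV underlies the sensory epithelium and the vessels. The 44 genes fell into 8 classes, with 11 fibrillar, 9 fibril-associated, 6 type IV, 6 type VI (beaded filament), 3 short-chain (types VIII and X), 4 transmembrane and 2 multiplexin chains (types XV and XVIII), and 3 others.

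The chains of collagen IV are encoded in pairs that start next to each other and are read in opposite directions. In the annotation of the GRCm38 build, the first exons of Col4a1 and Col4a2 overlapped by 22 bases on chromosome 8, the starts of Col4a4 and Col4a3 lay 71 bases apart on chromosome 1, and those of Col4a6 and Col4a5 lay 1308 bases apart on chromosome X. RefSeq promoter windows (GRCm38.p6, 250 bases before to 50 bases after each start) were found for 35 of the 44 genes, in 38 windows. The Col4a1 and Col4a2 windows are printed because they show this shared start, with the 78 bases they have in common in capitals, which are reverse complements of each other. The Col4a1 window is chr8:11312777-11313076 on the minus strand and the Col4a2 window is chr8:11312555-11312854 on the plus strand, each written 5′ to 3′.
Col4a1: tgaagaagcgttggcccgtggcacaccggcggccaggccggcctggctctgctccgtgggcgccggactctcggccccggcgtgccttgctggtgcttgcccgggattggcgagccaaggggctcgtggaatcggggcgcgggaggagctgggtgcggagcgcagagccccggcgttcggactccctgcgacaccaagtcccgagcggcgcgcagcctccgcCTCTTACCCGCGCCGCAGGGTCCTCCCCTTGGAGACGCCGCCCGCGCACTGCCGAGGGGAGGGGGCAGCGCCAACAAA
Col4a2: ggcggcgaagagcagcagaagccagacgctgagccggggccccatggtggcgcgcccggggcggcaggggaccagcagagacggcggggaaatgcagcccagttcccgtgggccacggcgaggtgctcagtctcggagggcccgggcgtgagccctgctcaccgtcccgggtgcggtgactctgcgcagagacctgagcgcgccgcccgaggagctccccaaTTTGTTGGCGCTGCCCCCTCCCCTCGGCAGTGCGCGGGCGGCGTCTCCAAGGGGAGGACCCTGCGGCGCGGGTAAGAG
The Col5a3 window, chr9:20815018-20815317 on the minus strand, belongs to a gene that differed between the groups, and its capitals mark 1 CCAAT box and 3 GC boxes.
Col5a3: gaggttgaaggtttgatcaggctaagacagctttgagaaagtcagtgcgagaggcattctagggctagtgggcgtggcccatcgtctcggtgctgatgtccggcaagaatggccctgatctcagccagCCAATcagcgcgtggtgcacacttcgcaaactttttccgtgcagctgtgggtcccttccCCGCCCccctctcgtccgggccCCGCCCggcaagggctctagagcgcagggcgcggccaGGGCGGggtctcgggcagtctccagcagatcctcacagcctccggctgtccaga
The TATA box, searched on both strands by the letters TATAAA, occurred in 5 of the 38 windows of collagen genes (13.2%) and in 13.6% of all 32851 windows of this length. The CCAAT box, searched in the same way by those letters, occurred in 13 of the 38 (34.2%) against 37.4% of all windows. The GC box, with the letters GGGCGG on either strand, occurred in 23 of the 38 (60.5%) against 35.7%. The median GC content was 59.8% in the windows of collagen genes and 52.7% in all windows. Col12a1, Col14a1 and Col1a1 are not in the promoter table used here.

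Total estimated counts were even across the libraries, from 40474800 to 43566300. Mitochondrially encoded genes took 10.1% to 13% of them in Control and 8.15% to 9.92% in IDPN. IDPN 2 stood apart from the other libraries on the first principal component of the 500 most variable genes (21.73, against −0.13 and 4.26 for the other IDPN animals and −10.34 to −7.38 for Control). The 12 hair cell markers summed to 28146 to 31853 normalized counts in Control and 20823 to 21073 in IDPN, with 6 of the 12 called lower and none at 0. Over all genes tested, 3.42% were called lower and 2.32% higher, beside which this and the marker lists below are given. Hair cell markers not called had log2-Fold_Changes from −0.70 (Atoh1) to 0.01 (Myo7a), with −0.21 for Myo6, the largest part of the sum (24.3%). Supporting cell markers (11 genes, none at 0) summed to 327197 to 459193 in Control and 235312 to 281519 in IDPN. Of these only Gjb6, the gene with the largest part of the sum, was called (lower). Melanocyte markers (9 genes, none at 0) summed to 7384 to 16030 in Control and 16436 to 25037 in IDPN. Of these only Kcnj13 was called (higher), and Dct, which was not called, gave 51.2% of the sum. These sums were not tested and do not show a change in either cell type. The sum of the 14 stromal markers overlapped between the groups, at 1685200 to 2738530 in Control and 1766390 to 1978850 in IDPN, of which Coch gave 90.6%. Pou3f4 was the only stromal marker called (lower, log2-Fold_Change −0.72, Padj = 0.012 by DESeq2). Among the 14 cartilage and bone markers, Matn3 was at 0 in all libraries and Bglap, Bglap2, Ibsp, Matn1 and Phex had means under 10, while Hapln1 was called higher. Their sum was 6773 to 8541 in Control and 5434 to 9214 in IDPN, with 91.8% from Cnmd. The part of these cell types in the collagen results was not tested, and in bulk tissue fewer cells of a type and less RNA per cell cannot be told apart.

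The collagen RNA of this tissue was dominated by a few chains. Levels between genes were compared as counts divided by transcript length and scaled to the same sum over all genes in each library, as in TPM (length-scaled levels). Col9a2, a chain of the fibril-associated collagen IX, had the highest length-scaled level, 71.1 ± 2.13 (SD, n = 3) in Control and 104 ± 8.02 (SD, n = 3) in IDPN. Col11a2, a chain of the fibrillar collagen XI, came next with 37.0 ± 2.44 and 48.3 ± 8.63 (SD, n = 3 each). The other collagen IX chains followed closely, Col9a3 with 31.6 ± 2.70 for Control and 52.8 ± 7.31 for IDPN and Col9a1 with 29.4 ± 4.83 and 48.7 ± 4.20 (SD, n = 3 each). Over all 6 libraries the means of Col11a2, Col9a3 and Col9a1 were 42.7, 42.2 and 39.0, closer to each other than the spread between libraries. These 4 chains made up 67.0% to 74.3% of the summed length-scaled level of all collagen genes in each library. Col1a2 (Control 15.7 ± 0.744, IDPN 27.5 ± 3.80, SD, n = 3 each) and Col18a1 (Control 10.2 ± 2.75, IDPN 17.0 ± 1.84) came after them in rank. At the other end, 6 genes had a mean normalized count under 10 (Col10a1, Col17a1, Col19a1, Col22a1, Col6a4 and Col6a5). All 44 genes had counts in at least 1 library, and 40 to 42 of them in any single library.

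**Figure D1:**
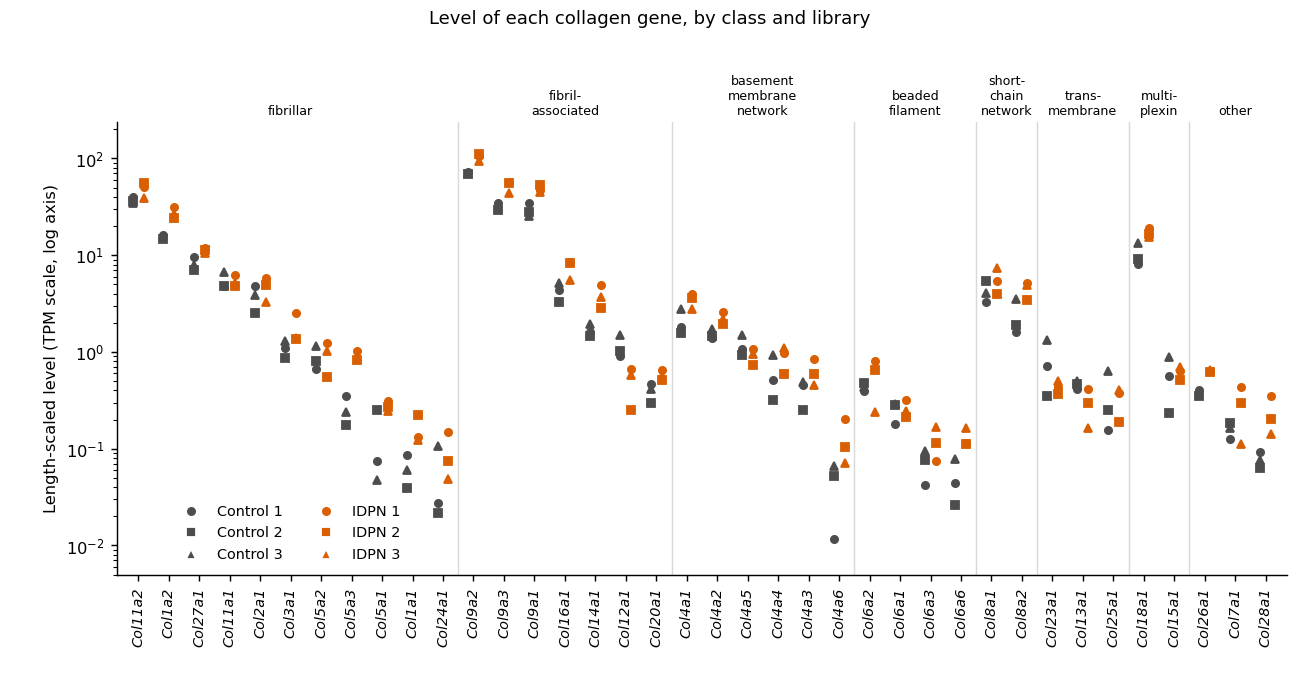
Length-scaled level (log axis) of the collagen genes whose mean normalized count was 10 or more, with 1 point per library and the genes sorted by class and level. The collagen IX chains and Col11a2 are at the top in every library. IDPN points sit above Control points for most genes on this scale, which is relative to the sum over all genes of the library.

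Collagen genes took 0.0604% to 0.0668% of all counts in Control and 0.0802% to 0.0920% in IDPN, without overlap. With the median-of-ratios normalization used for the tests, which sets the typical gene to no change, the summed counts were 34266, 29577 and 24321 in Control animals 1 to 3 and 31649, 38950 and 30300 in IDPN animals 1 to 3, and the groups overlapped. The log2 ratio of the sums was 0.19 on that scale and 0.46 with scaling to total counts. The same shift applied to the whole table, where the median log2-Fold_Change of all genes was 0.02 with median-of-ratios and 0.27 with total-count scaling. Size factors were 0.825 to 1.12 in Control and 0.996 to 1.21 in IDPN, and the 100 most abundant genes took 48.3% to 54.5% of the counts in Control and 44.6% to 48.2% in IDPN. Changes are therefore given relative to the typical gene, unless the total-count scale is named.

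Col12a1 was downregulated and Col14a1 and Col5a3 were upregulated in IDPN, and no other collagen gene passed the thresholds (DESeq2 Padj under 0.05 and a fold change over 1.5). Of the 44 genes, 39 received a Padj, and Col10a1, Col17a1, Col19a1, Col6a4 and Col6a5 fell under the low-count filter of DESeq2. The 2 upregulated genes among 39 compare with 2.32% of the 17650 genes tested over the whole table, and the 1 downregulated gene with 3.42%. In all, 7.69% of the tested collagen genes were called, and the counts are too small to set the family apart from other genes. The edgeR quasi-likelihood test called Col14a1 higher (1.02% of all genes) and Col12a1 lower (2.19%), out of 38 collagen genes tested. The p-values set the difference between the groups against the spread between animals, estimated from 3 per group with information from other genes.

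Col12a1 encodes the single chain of collagen XII, a fibril-associated collagen that bridges collagen I fibrils and other matrix proteins (ENSMUSG00000032332.17, chr9:79598991-79718831, minus strand). Its normalized counts were 327, 352 and 384 in Control animals 1 to 3 and 143, 70.3 and 143 in IDPN animals 1 to 3. All IDPN libraries lay below all Control libraries, and IDPN 2, the library that stood apart, was the lowest. The mean fell from 355 ± 28.5 to 119 ± 42.0 (SD, n = 3 each), which was 2.98-fold lower in IDPN, a log2-Fold_Change of −1.58 (SE 0.28, 95% interval −2.13 to −1.02, Padj = 2.91e-06 by DESeq2). It was also called by edgeR (−1.57, adjusted p = 0.0152) and by DESeq2 with total-count scaling (−1.30, Padj = 0.0100). Without IDPN 2 the log2-Fold_Change was −1.31, and the DESeq2 Padj ranged from 1.2e-05 to 0.00061 as each library was left out.

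Col14a1 encodes collagen XIV, a fibril-associated relative of collagen XII that regulates fibril diameter (ENSMUSG00000022371.15, chr15:55307750-55520803, plus strand). It had normalized counts of 324, 284 and 280 in Control animals 1 to 3 and 604, 452 and 518 in IDPN animals 1 to 3. The groups did not overlap, and IDPN 1 was the highest. The mean rose from 296 ± 24.2 to 525 ± 76.4 (SD, n = 3 each), which was 1.77-fold higher, a log2-Fold_Change of 0.83 (SE 0.20, 95% interval 0.43 to 1.23, Padj = 0.00205 by DESeq2, edgeR adjusted p = 0.0254). With total-count scaling it was 1.10 (Padj = 0.00231 by DESeq2). Leaving out single libraries kept the call, with DESeq2 Padj from 0.00184 to 0.0472. The ratio of Col14a1 to Col12a1, a pair compared after their values were seen, was 1.76, 1.44 and 1.30 in Control animals 1 to 3 and 7.52, 11.5 and 6.47 in IDPN animals 1 to 3 on the length-scaled level. Col14a1 was the more abundant in every library. The groups did not overlap in this ratio, which follows from the opposite separation of each gene and is not separate evidence.

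**Figure D2:**
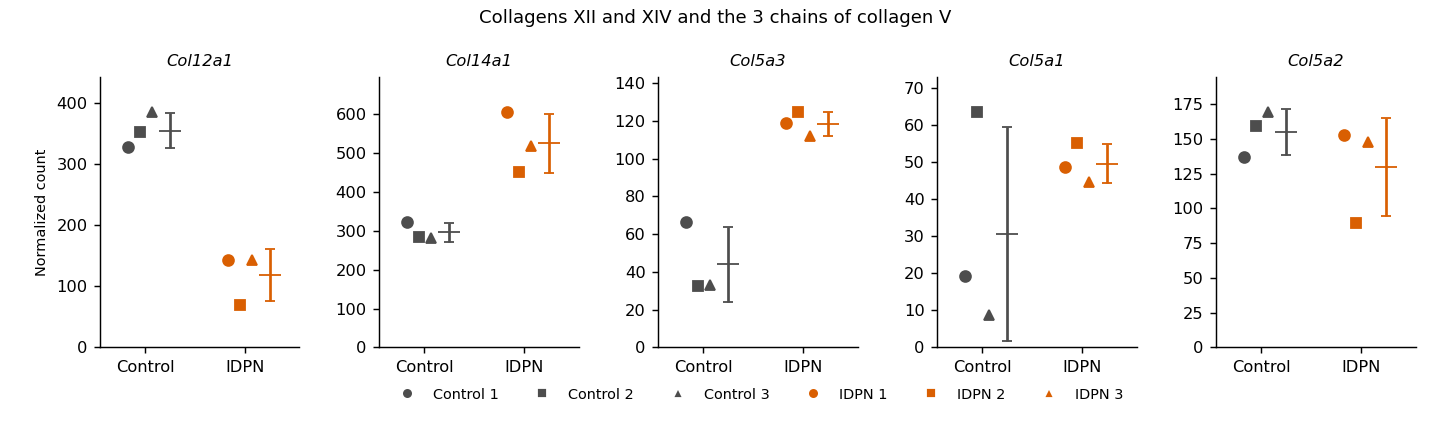
Normalized counts of Col12a1, Col14a1 and the 3 chains of collagen V, with 1 point per library and the mean ± SD of 3 libraries beside them. Control and IDPN do not overlap for Col12a1, Col14a1 and Col5a3, and overlap for Col5a1 and Col5a2.

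Col5a3 encodes the α3 chain of collagen V, a minor fibrillar collagen that helps to start and limit fibril growth (ENSMUSG00000004098.7, chr9:20770050-20815067, minus strand, the gene of the promoter window with the capital motifs). Its normalized counts were 66.7, 32.3 and 32.9 in Control animals 1 to 3 and 119, 125 and 112 in IDPN animals 1 to 3. The IDPN libraries lay close together above all Control libraries, of which Control 1 was the highest. The mean rose from 44 ± 19.7 to 119 ± 6.28 (SD, n = 3 each), which was 2.71-fold higher, a log2-Fold_Change of 1.44 (SE 0.37, 95% interval 0.71 to 2.17, Padj = 0.00405 by DESeq2). This call was less stable, since it did not pass with edgeR (1.44, adjusted p = 0.0548) or without Control 2 (1.26, Padj = 0.0561 by DESeq2). Without Control 1 the log2-Fold_Change was 1.86 (Padj = 0.000146 by DESeq2).

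The α3 chain is assembled with the α1 and α2 chains of collagen V, and these were not called. Col5a1 had normalized counts of 19.4, 63.5 and 8.90 in Control animals 1 to 3 and 48.8, 55.2 and 44.8 in IDPN animals 1 to 3, a log2-Fold_Change of 0.71 (SE 0.61, Padj = 0.632 by DESeq2). Its Control libraries were widely spread, with Control 2 above all IDPN libraries. Col5a2 had 137, 159 and 169 in Control animals 1 to 3 and 153, 89.4 and 147 in IDPN animals 1 to 3, a log2-Fold_Change of −0.25 (SE 0.29, Padj = 0.756 by DESeq2), with IDPN 2 the lowest. On the length-scaled level, Col5a2 exceeded Col5a3 by 1.90, 4.55 and 4.74 times in Control animals 1 to 3, while the ratios in IDPN animals 1 to 3 were 1.19, 0.663 and 1.22. The ratios of the groups did not overlap, which partly restates the call of Col5a3.

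**Figure D3:**
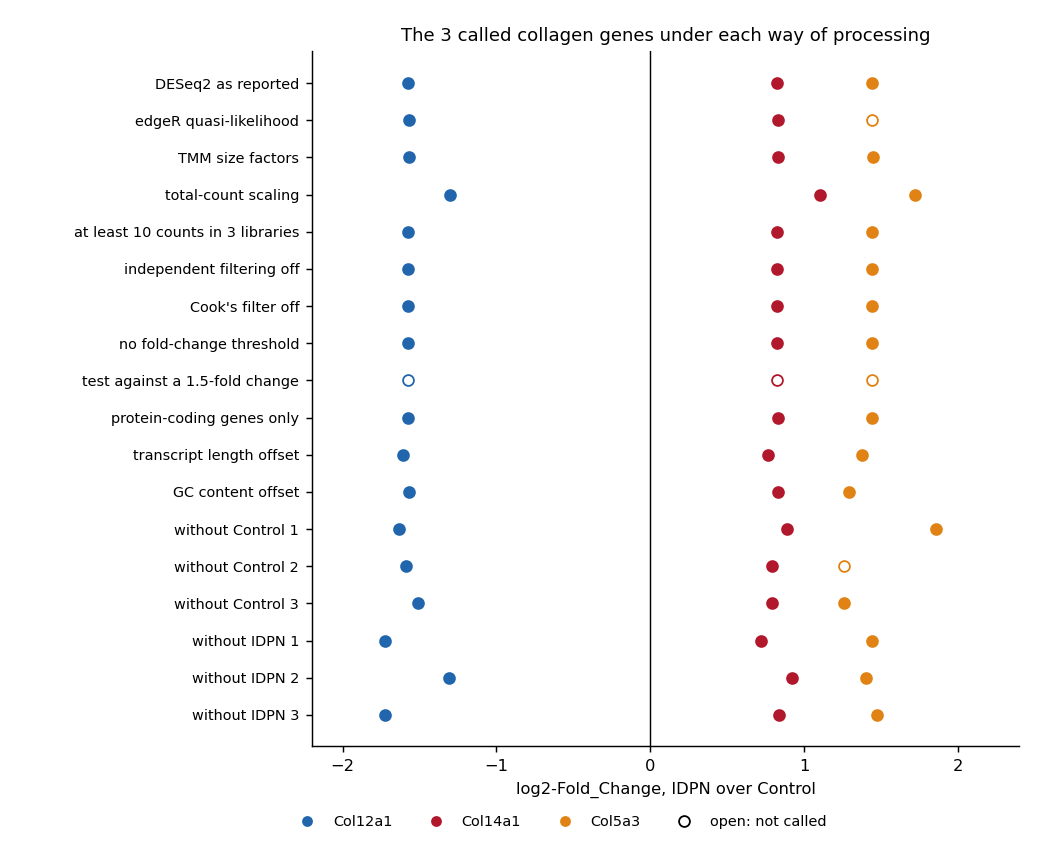
Log2-Fold_Change of Col12a1, Col14a1 and Col5a3 as reported and under each of 17 other ways of processing, where filled points passed the thresholds and open points did not. The direction is the same throughout, in part because alternatives that change only a filter or threshold after the fit keep the estimate. A test against a 1.5-fold change calls none of the 3.

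Among the 39 tested collagen genes, 28 had a positive and 11 a negative log2-Fold_Change, with a median of 0.31 beside 0.02 over all genes tested. With total-count scaling the medians were 0.58 and 0.27. All IDPN libraries were above all Control libraries for 8 of the 39 (Col14a1, Col18a1, Col1a2, Col28a1, Col4a2, Col5a3, Col6a6 and Col8a2), which is 20.5% against 11.1% of all genes tested. The reverse held for 5 (Col11a1, Col12a1, Col13a1, Col22a1 and Col4a5), which is 12.8% against 11.4%. Precision depended on abundance, with SEs of the log2-Fold_Change from 0.16 to 0.23 for the 8 genes with a mean normalized count of 1000 or more, and from 0.37 to 0.87 for the 17 genes with a mean from 10 to under 100. A change of modest size in the weakly expressed chains was not detectable at this depth.

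**Figure D4:**
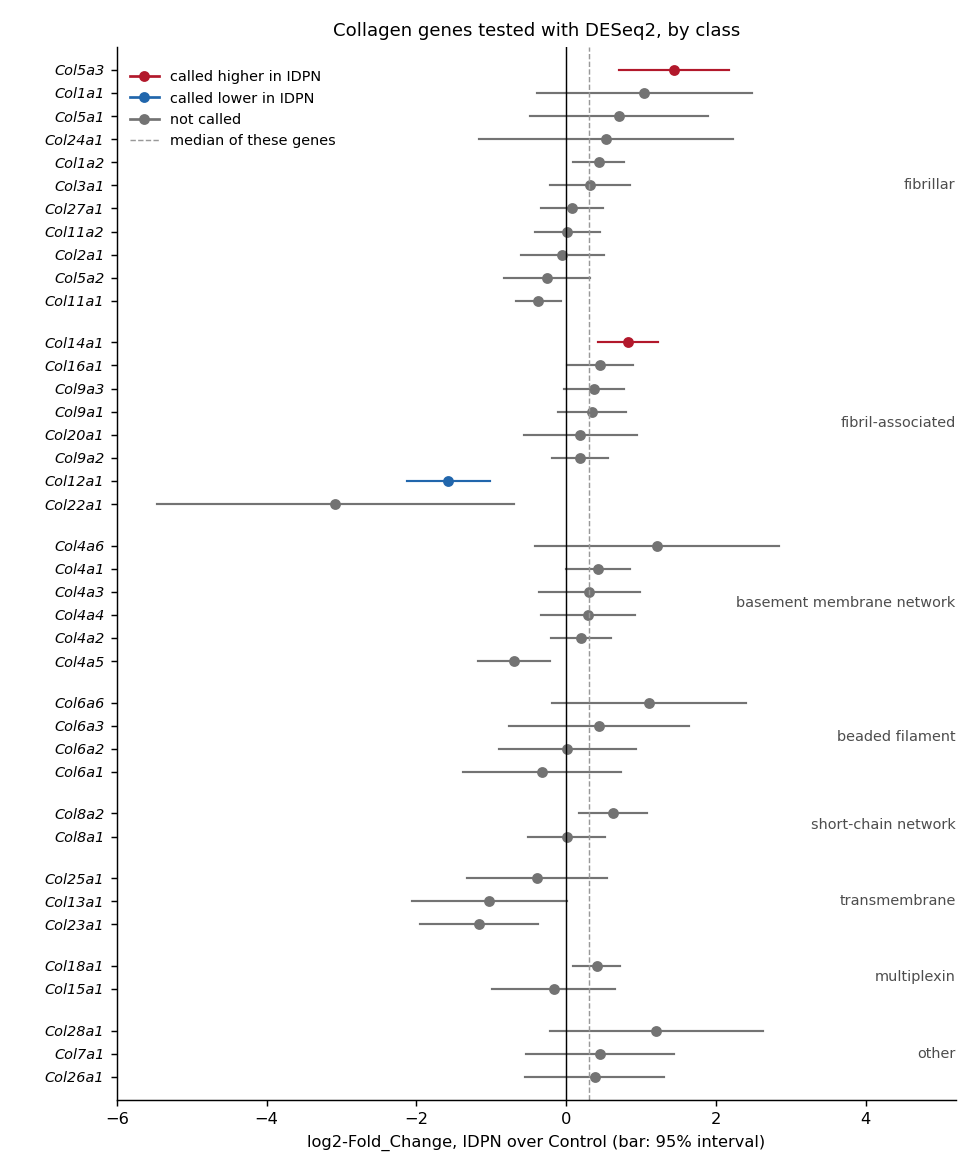
Log2-Fold_Change of the 39 collagen genes tested with DESeq2 by class, where bars are 95% intervals and the dashed line is their median (0.31). Col14a1 and Col5a3 are called higher and Col12a1 lower, and the 3 transmembrane chains all have negative estimates that were not called.

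In the fibrillar class, 1 of 11 tested genes was called (Col5a3, 9.09% beside 5.75% of all genes tested), with a median log2-Fold_Change of 0.32. Col11a2, the most abundant of them, had normalized counts of 7494, 6592 and 4693 in Control animals 1 to 3 and 5796, 8160 and 5046 in IDPN animals 1 to 3. The groups overlapped, with a log2-Fold_Change of 0.02 (SE 0.22, 95% interval −0.41 to 0.45, Padj = 0.985 by DESeq2). Values of further chains below were chosen after they were seen. Its partner chain Col11a1 had 1146, 1102 and 1154 in Control and 891, 892 and 849 in IDPN, a log2-Fold_Change of −0.37 (SE 0.16, Padj = 0.156 by DESeq2). The libraries of each group lay close together without overlap, but the difference did not pass. With total-count scaling its log2-Fold_Change was −0.12.

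Collagen I is assembled mainly from 2 α1 chains and 1 α2 chain, and the counted RNA of these chains was far from that proportion. Col1a2 had normalized counts of 2716, 2372 and 1891 in Control animals 1 to 3 and 3184, 3139 and 3095 in IDPN animals 1 to 3. All IDPN libraries were higher, with a log2-Fold_Change of 0.43 (SE 0.17, Padj = 0.124 by DESeq2) that passed only with total-count scaling (0.71, Padj = 0.0132 by DESeq2). Col1a1 had 15.8, 6.93 and 8.01 in Control animals 1 to 3 and 14.9, 32.1 and 15.9 in IDPN animals 1 to 3, with overlap (log2-Fold_Change 1.04, SE 0.73, Padj = 0.518 by DESeq2). On the length-scaled level, Col1a2 exceeded Col1a1 by 108 to 380 times over the 6 libraries. That excess was present in Control (191 to 380 times) and in IDPN (108 to 237 times), and the ranges overlapped. The part of mapping, counting or amplification in this excess was not tested.

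In the fibril-associated class, Col14a1 and Col12a1 were the called genes among 8 tested (25.0% beside 5.75% of all genes tested), with a class median of 0.27. These counts are too small to set the class apart. The collagen IX chains, which form a heterotrimer on the surface of collagen II fibrils, were not called. Col9a2 had normalized counts of 6686, 6032 and 4623 in Control animals 1 to 3 and 5820, 7905 and 6002 in IDPN animals 1 to 3, a log2-Fold_Change of 0.19 (SE 0.19, 95% interval −0.19 to 0.56, Padj = 0.713 by DESeq2). Col9a3 had a log2-Fold_Change of 0.37 (Padj = 0.364 by DESeq2, and 0.0387 with total-count scaling, at 0.64) and Col9a1 of 0.35 (Padj = 0.480 by DESeq2). Their proportions were steady over the libraries. The length-scaled ratio of Col9a1 to Col9a3 was 0.818 to 1.02 and that of Col9a2 to Col9a3 was 1.83 to 2.33. For Col9a2 to Col9a1 it was 2.08 to 2.78. Col22a1, a collagen of tissue junctions, had 8.49, 18.5 and 10.7 in Control animals 1 to 3 and 3.31, 1.00 and 0 in IDPN animals 1 to 3, a log2-Fold_Change of −3.08 (SE 1.22, Padj = 0.120 by DESeq2). Its groups did not overlap, but the counts were low and the gene was not called. With total-count scaling, 4 collagen genes were called higher (Col14a1, Col1a2, Col5a3 and Col9a3) beside 3.64% of all genes tested on that scale, and Col12a1 was called lower beside 1.28%.

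None of the 6 type IV chains was called by DESeq2 or edgeR (1 had an unadjusted DESeq2 p under 0.05), and the class median was 0.30. Col4a1, the most abundant, had normalized counts of 378, 314 and 410 in Control animals 1 to 3 and 501, 579 and 398 in IDPN animals 1 to 3, a log2-Fold_Change of 0.42 (SE 0.22, Padj = 0.304 by DESeq2). Its groups overlapped through Control 3 and IDPN 3. Col4a2, which shares its start with Col4a1 in the windows printed above, had 281, 279 and 246 in Control and 317, 308 and 301 in IDPN (log2-Fold_Change 0.20, Padj = 0.710 by DESeq2). The length-scaled ratio of Col4a1 to Col4a2 was 1.10 to 1.83 and that of Col4a4 to Col4a3 was 0.998 to 2.43 over all libraries, so both pairs ran within a few-fold of even. Reads from the exon bases that Col4a1 and Col4a2 share cannot be told apart by strand, because the library method does not keep it. The X-linked pair was uneven. Its length-scaled ratio of Col4a5 to Col4a6 was 17.9 to 92.6 in Control and 5.28 to 13.3 in IDPN. These ranges did not overlap, but the ratio rests on low Col4a6 counts, from 2 to 31 per library before normalization. Col4a5, the α5 chain, had 221, 182 and 220 in Control animals 1 to 3 and 133, 116 and 134 in IDPN animals 1 to 3. All IDPN libraries were lower, with a log2-Fold_Change of −0.70 (SE 0.25, Padj = 0.070 by DESeq2), and it passed when only genes with at least 10 counts in 3 libraries were tested (Padj = 0.0493 by DESeq2) or with a transcript length offset (0.0292). Col4a6 had 2.43, 10.4 and 9.79 in Control and 25.7, 17.1 and 10.3 in IDPN (log2-Fold_Change 1.22, SE 0.83, Padj = 0.497 by DESeq2).

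The smaller classes held no gene called by DESeq2 or edgeR, and 1 transmembrane, 1 multiplexin and 1 short-chain gene had an unadjusted DESeq2 p under 0.05. All 3 tested transmembrane chains, collagens anchored in the plasma membrane, had negative estimates (median −1.03). Col23a1, the most abundant of them, had normalized counts of 127, 60.0 and 166 in Control animals 1 to 3 and 46.3, 51.2 and 60.7 in IDPN animals 1 to 3, a log2-Fold_Change of −1.17 (SE 0.40, Padj = 0.055 by DESeq2). Control 2 lay within the IDPN range, and without it the log2-Fold_Change was −1.49 (Padj = 0.00302 by DESeq2). It also passed when only genes with at least 10 counts in 3 libraries were tested (0.0457) and with a transcript length offset (0.0320). Col13a1, found at neuromuscular and other cell contacts, had 41.2, 43.9 and 35.6 in Control and 24.8, 23.1 and 11.2 in IDPN without overlap (log2-Fold_Change −1.03, SE 0.53, Padj = 0.30 by DESeq2). Col25a1 had a log2-Fold_Change of −0.39 (SE 0.48).

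Col18a1, a basement membrane collagen whose end fragment is endostatin, led the multiplexins with normalized counts of 1413, 1540 and 1655 in Control animals 1 to 3 and 2004, 2235 and 1866 in IDPN animals 1 to 3. All IDPN libraries were higher, with a log2-Fold_Change of 0.41 (SE 0.16, 95% interval 0.09 to 0.72) that was not called (Padj = 0.120 by DESeq2). Among the short-chain collagens, Col8a1 overlapped at 528, 826 and 465 in Control and 523, 495 and 808 in IDPN (log2-Fold_Change 0.01, SE 0.26). Col8a2 had 220, 245 and 337 in Control and 422, 362 and 456 in IDPN, a log2-Fold_Change of 0.63 (SE 0.23, Padj = 0.086 by DESeq2), with no overlap. It passed only when Control 3 was left out (0.83, Padj = 0.00541 by DESeq2). The type VI chains, which build the beaded filaments around cells, were weakly expressed. Col6a2, the most abundant of them, had 57.0, 66.9 and 44.5 in Control and 71.2, 74.3 and 24.3 in IDPN (log2-Fold_Change 0.01, SE 0.47). Col26a1 led the remaining genes with 35.2, 28.9 and 24.0 in Control and 33.1, 42.2 and 39.2 in IDPN (log2-Fold_Change 0.38, SE 0.47).

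Collagen chains are hydroxylated, folded and trimmed before they assemble, and are later cross-linked, bound by receptors and broken down. Of 88 measured genes of these steps, 75 were tested, of which 3 were called higher (Mmp14, Mmp15 and Ogn) and 3 lower (Matn4, Mmp16 and Tll1) with DESeq2. That is 8.00% of them beside 2.32% higher and 3.42% lower over all genes, and their median log2-Fold_Change was 0.03. The edgeR test called none higher and 2 lower (Matn4 and Mmp16). With total-count scaling, 6 were called higher (Mmp14, Mmp15, Nid2, Ogn, Pcolce and Tgm2) and none lower, beside 3.64% higher and 1.28% lower over all genes on that scale, and the log2-Fold_Change of Matn4, Mmp16 and Tll1 remained negative (−0.64, −0.79 and −1.09).

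The called genes of matrix breakdown were all membrane-type matrix metalloproteinases, which cut collagens and other proteins at the cell surface. Mmp14, which also activates the gelatinase Mmp2, had normalized counts of 657, 616 and 1147 in Control animals 1 to 3 and 1308, 1887 and 1310 in IDPN animals 1 to 3. The groups did not overlap, although Control 3 came near the lowest IDPN library. The log2-Fold_Change was 0.89 (SE 0.25, Padj = 0.0095 by DESeq2, edgeR adjusted p = 0.0905), and the call was lost without Control 1, Control 2 or IDPN 2 (DESeq2 Padj 0.120, 0.155 and 0.122). Mmp15 had 343, 474 and 555 in Control and 713, 732 and 715 in IDPN, a log2-Fold_Change of 0.65 (SE 0.21, Padj = 0.035 by DESeq2), which passed in 8 of 17 alternatives. Mmp16 went the other way, with 503, 463 and 756 in Control and 331, 229 and 290 in IDPN (log2-Fold_Change −1.02, SE 0.25, Padj = 0.0014 by DESeq2, edgeR adjusted p = 0.0422). All its IDPN libraries were below all Control libraries, but with total-count scaling it was not called (−0.79, Padj = 0.154 by DESeq2). Mmp2 overlapped at 1904 to 2649 in Control and 2094 to 2534 in IDPN (log2-Fold_Change 0.02, SE 0.18).

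Ogn (osteoglycin, a small leucine-rich proteoglycan of collagen fibrils) had normalized counts of 4769, 3733 and 3058 in Control animals 1 to 3 and 5576, 5297 and 7003 in IDPN animals 1 to 3. The groups did not overlap, with a log2-Fold_Change of 0.63 (SE 0.20, Padj = 0.027 by DESeq2, edgeR adjusted p = 0.115). The call was lost without Control 2, Control 3, IDPN 1 or IDPN 3 (DESeq2 Padj 0.175, 0.0811, 0.0626 and 0.239). Matn4, a matrilin that links matrix fibres, had 688, 832 and 869 in Control and 502, 395 and 389 in IDPN, a log2-Fold_Change of −0.89 (SE 0.20, Padj = 0.000303 by DESeq2, edgeR adjusted p = 0.0198), and with total-count scaling it was not called (−0.64, Padj = 0.165 by DESeq2). Dcn (decorin) overlapped, at 14674 to 31274 in Control and 28305 to 31197 in IDPN (log2-Fold_Change 0.36, SE 0.23).

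Tll1, a procollagen C-proteinase of the tolloid family, had normalized counts of 77.6, 121 and 119 in Control animals 1 to 3 and 48.8, 53.2 and 26.1 in IDPN animals 1 to 3. All IDPN libraries were lower, with a log2-Fold_Change of −1.31 (SE 0.39, Padj = 0.018 by DESeq2, edgeR adjusted p = 0.0892), and it passed in 11 of 17 alternatives. Lox, the lysyl oxidase that cross-links fibrils, overlapped between the groups (log2-Fold_Change 0.16, SE 0.33).

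None of the 24 tested genes of chain modification and folding was called by DESeq2 or edgeR, and 2 had an unadjusted DESeq2 p under 0.05. P4hb, the β subunit of prolyl 4-hydroxylase, had a log2-Fold_Change of −0.03 (SE 0.18). Serpinh1 (the collagen chaperone HSP47) had 209, 205 and 702 in Control and 441, 433 and 295 in IDPN, with Control 3 far above the other Control libraries (log2-Fold_Change 0.07, SE 0.62). Without Control 3 it was called higher (0.91, Padj = 0.00979 by DESeq2), as was P4ha3, an α subunit of prolyl 4-hydroxylase (0.69, Padj = 0.0242 by DESeq2). Sparc, a collagen-binding glycoprotein, had 97890, 86290 and 76397 in the Control and 50902, 71435 and 51386 in the IDPN libraries. Its IDPN libraries were all lower and its DESeq2 Padj was 0.026, but the log2-Fold_Change of −0.58 (SE 0.18) fell just short of 1.5-fold. It was called lower when only genes with at least 10 counts in 3 libraries were tested (−0.59), with a GC content offset (−0.59), without Control 3 (−0.67) and without IDPN 2 (−0.76). Its edgeR adjusted p was 0.213. None of the 10 tested collagen receptors was called by DESeq2 or edgeR, and 1 had an unadjusted DESeq2 p under 0.05. Ddr1, a collagen-activated tyrosine kinase, had a log2-Fold_Change of 0.38 (SE 0.22) and Itgb1, the common subunit of collagen-binding integrins, of 0.28 (SE 0.15).

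**Figure D5:**
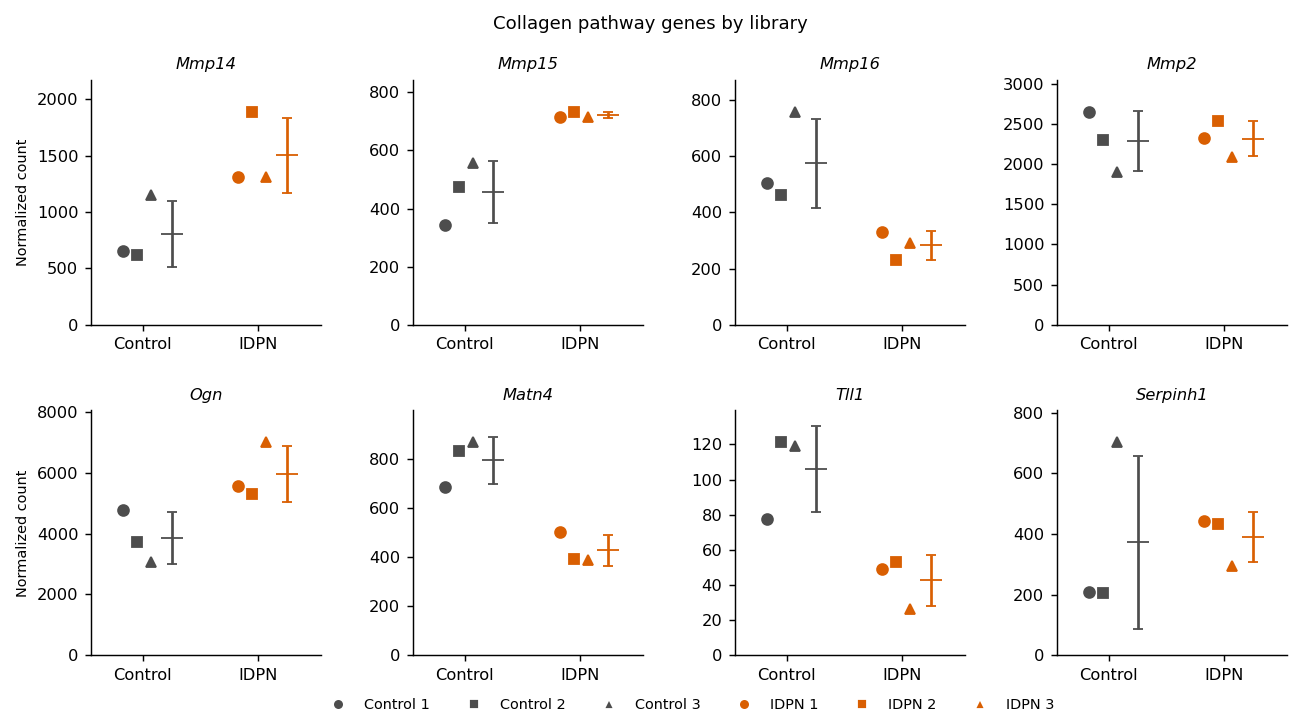
Normalized counts of the 6 called collagen pathway genes and of Mmp2 and Serpinh1, with 1 point per library and the mean ± SD of 3 libraries beside them. Mmp14, Mmp15 and Ogn are higher and Mmp16, Matn4 and Tll1 lower in all IDPN libraries, while Mmp2 and Serpinh1 overlap.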

How the data were processed

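Bulk RNA-seq libraries of 3 Control and 3 IDPN mice were made by the SMART-seq2 method from 6 to 11 ng of RNA, without molecular identifiers. The authors aligned reads to GRCm38 with STAR 2.5.3a and estimated gene counts with RSEM 2.3.0 on GENCODE M15 (versions from the submitters' processing notes and the study's methods). The deposited values are these expected counts, given as whole numbers without normalization. RSEM divides reads shared by several genes. The amplified cDNA was fragmented with Nextera XT, a method that does not keep the strand of the RNA. Totals were 40474800 to 43566300 per library.

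The collagen genes and all gene lists were chosen with earlier results of these data known. All 52636 genes were fitted with the DESeq2 Wald test (DESeq2 1.42.0, R 4.3.3, no covariate). DESeq2 and both thresholds are those of the study's methods, which give neither the form of the test nor covariates. A gene was called at a Benjamini-Hochberg adjusted p (Padj) under 0.05 over all genes tested and a fold change over 1.5. Alternatives were the edgeR 4.0.16 quasi-likelihood test, TMM or total-count scaling, filters, a test against 1.5-fold, offsets for transcript length or GC content, protein-coding genes alone, and leaving out each library. Genes given per library were the called collagen genes, the most abundant of each class, the other chains of a called trimer, called pathway genes and a short list of other pathway genes. Lengths and coordinates came from GENCODE M21 (GRCm38), with a length for 52403 genes (99.6%). Neither the lists nor their sums were tested as sets. On simulated counts with 200 genes changed 4-fold among 25689, DESeq2 recovered 96.0% (11.5% of its calls were false) and edgeR 92.5% (6.57%). The changed genes were drawn without those of low mean, and 4-fold exceeds the change of any called collagen gene. These rates therefore do not describe weakly expressed chains or smaller changes.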

Additional observations from a re-analysis of the deposited data

How the results depend on the processing

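The direction of Col12a1, Col14a1 and Col5a3 was the same in all 17 alternatives. Alternatives that change only a filter or a threshold after the fit keep the estimate, so their direction was fixed in advance. Dropping the fold-change threshold cannot lose a call. A test against a 1.5-fold change called 0 collagen genes in either direction and 0 pathway genes in either direction. With edgeR, 1 collagen gene and 0 pathway genes were called higher. Total-count scaling called 4 collagen genes higher, 6 pathway genes higher and 0 pathway genes lower, and moved the collagen median to 0.58 and the log2 ratio of summed counts to 0.46, which follows from the scaling itself. Testing only genes with at least 10 counts in 3 libraries called 3 collagen genes (Col12a1, Col23a1 and Col4a5) and 5 pathway genes lower, and a transcript length offset called the same 3 collagen genes lower. As single libraries were left out, collagen genes called higher numbered 1 (without Control 2) to 3 (without Control 3) and lower 1 to 2 (without Control 2), pathway genes higher 0 (without Control 2) to 4 and lower 2 to 5 (without IDPN 2), the collagen median ran from 0.19 (without IDPN 1) to 0.36, and the log2 ratio of sums from 0.08 (without Control 3 or IDPN 2) to 0.32 (without Control 1). Without Control 1 or IDPN 3, 1 pathway gene was called higher, and likewise without IDPN 2. Shares of all genes called under these filters, offsets and left-out libraries are not given here. The counts therefore describe stability only and do not set the lists apart. Among the 13 collagen genes called, most abundant in their class or in a called trimer, the sign reversed for 4 uncalled genes. Their estimates were near 0 or small against their SE. These were Col11a2 (−0.046 with the length offset, −0.15 with the GC offset, and −0.21 to 0.16 without single libraries), Col6a2 (−0.031, −0.016, and −0.23 to 0.38), Col8a1 (−0.054 with the length offset, and −0.25 to 0.29 without single libraries), and Col5a2 (0.011 with total-count scaling). Outside those 13, Col2a1 went from −0.051 to 0.22 and Col15a1 from −0.17 to 0.052 with total-count scaling. The cause was not tested. No paired analysis was possible because the labels give no replicate numbers shared by the groups. With 3 animals a group, weakly expressed chains had SEs up to 3.95, and their differences are bounded only loosely.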

Other observations

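Proteins outside the collagen family can also carry collagen-like repeats, such as complement C1q, the ficolins and some scavenger receptors. Of 39 measured genes of this kind, 27 were tested, 2 were called higher and 2 lower with DESeq2 (14.8% of those tested), beside 2.32% higher and 3.42% lower over all genes. The edgeR test also called 2 higher and 2 lower, beside 1.02% and 2.19% over all genes. Eda, the ligand ectodysplasin A, had normalized counts of 57.0, 92.3 and 109 in Control animals 1 to 3 and 9.93, 12.0 and 9.33 in IDPN animals 1 to 3. All IDPN libraries were far below all Control libraries, 8.28-fold lower by the fit (log2-Fold_Change −3.05, SE 0.48), and it was called in all 17 alternatives. Fcna (ficolin A, a lectin that starts the complement cascade) had 14.6, 32.3 and 11.6 in Control and 101, 63.3 and 105 in IDPN (log2-Fold_Change 2.22, SE 0.48, Padj = 0.000209 by DESeq2). C1qtnf1, a secreted C1q-like protein, had 77.6, 94.6 and 53.4 in Control and 207, 242 and 198 in IDPN (log2-Fold_Change 1.53, SE 0.29). Neither gene's groups overlapped, and reads of the antisense genes that overlap each of them cannot be told apart, since strand was not kept.

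Scara3, a scavenger receptor-like protein, had 3161, 2763 and 2533 in Control and 1847, 1500 and 1632 in IDPN (log2-Fold_Change −0.76, SE 0.17, Padj = 0.000253 by DESeq2). With total-count scaling it was not called (−0.49, Padj = 0.207 by DESeq2). Otol1 (otolin, a collagen-like protein of the otoconial membranes) was not called, at 3892 to 4474 in Control and 4123 to 5964 in IDPN (log2-Fold_Change 0.27, SE 0.17, Padj = 0.464 by DESeq2). Its values were chosen after they were seen. The 3 C1q chains, which macrophages make, were not called either (log2-Fold_Change 0.11 to 0.80). The C1qc libraries of the groups did not overlap, and it was called higher with total-count scaling (1.07, Padj = 0.00745 by DESeq2), with a transcript length offset (0.90) and without Control 2 (1.18). The summed level of 10 macrophage markers, which include them, was 2245 to 3100 in Control and 2733 to 3960 in IDPN.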
